A study of Homo sapiens with 48 samples.

Results

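Untreated cells of a pair of multiple myeloma lines, H-929 and RPMI, were compared in their baseline gene expression. The members are the 6 libraries labelled DMSO from these lines, 3 per line, out of 48 libraries in the whole series. Their labels set which libraries belong, though the choice was made with earlier results of these data known. Both groups received the solvent DMSO for 24 h as the control for carfilzomib, an irreversible proteasome inhibitor that neither group received. The labels give both as multiple myeloma cell lines grown in dishes under standard conditions, state biological triplicates, and add no genotype, passage or age. H-929 is an established line known for a translocation that joins the immunoglobulin heavy chain locus to the region of FGFR3 and NSD2. The second line is labelled only RPMI, and which of the lines with that prefix it is was not worked out here. Each group is therefore 1 line, so every difference below is between these lines and not between kinds of myeloma,  and p-values measure only the spread between libraries of a line.

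Multiple myeloma is a cancer of plasma cells, the antibody-secreting end stage of B cells. Plasma cells are known for transcription factors that hold the secretory state, such as PRDM1, IRF4 and XBP1, for an expanded endoplasmic reticulum (ER), and for a heavy use of the proteasome, which degrades misfolded and surplus protein. Subtypes are known by which oncogene an immunoglobulin locus translocation switches on, the best known being FGFR3 with NSD2, MAF, and the cyclins CCND1 and CCND3, while a D-type cyclin is raised in nearly every case.

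Values are given as CPM, read counts scaled by library total and by a composition factor, per library in the order of replicates 1, 2 and 3. CPM do not correct for gene length, so only values of the same gene are compared. Differences are log2, H-929 minus RPMI, so that positive values are higher in H-929, and a value after ± is the standard error for a log2 difference and the SD over the 3 libraries (n = 3) for CPM. A gene is written as higher where edgeR's quasi-likelihood F test gave a Benjamini-Hochberg adjusted p under 0.05 over all genes tested, and as over 2-fold higher where a second test, against a null change of 2-fold, did. Total counts were 14643911 to 18857059 in the H-929 libraries and 17556925 to 36584233 in the RPMI libraries. Correlations of log expression across genes were 0.983 to 0.993 between libraries of a line and 0.723 to 0.729 between the lines.

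The lines differed across most of the transcriptome. Of 15774 genes tested, 6464 were higher in H-929 (41%) and 6473 were higher in RPMI (41%), together 82%. Over 2-fold differences were called for 3681 genes in H-929 (23.3%) and 3033 in RPMI (19.2%), together 42.6%. The CPM of the lines did not overlap for 83.7% of the genes. These shares are the background against which the gene list counts below are read. Between lines this far apart, a list with about 82% of its members called stands where all genes stand. The median difference of all genes was 0.0086.

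The genes that the H-929 translocation is known to raise, FGFR3 and NSD2, were both over 2-fold higher in H-929. FGFR3 (ENSG00000068078), a receptor tyrosine kinase, stood at 525, 471 and 511 CPM in H-929 and at 1.28, 1.0 and 1.22 CPM in RPMI. The groups did not overlap, and the difference was 8.76 ± 0.096, adjusted p = 3.43e-14. NSD2, a histone H3 lysine methyltransferase gene that lies near FGFR3, was expressed in both, at 1489, 1430.2 and 1528 CPM against 216, 221 and 226 CPM, a difference of 2.75 ± 0.054. UCHL1, a ubiquitin hydrolase listed here as NSD2-associated, was at 260.3, 261 and 266 CPM in H-929 and under 1 CPM in RPMI (0.233, 0.50 and 0.387). Of the other 3 genes on that short list, MYRIP was over 2-fold higher in H-929 (6.09), while the adhesion genes DSG2 (-1.64) and CDH2 (-1.20) were over 2-fold higher in RPMI. The list thus counted 2 genes in each direction.

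RPMI carried the higher level of MAF and of CCND2, a cyclin gene known as a MAF target. MAF, a leucine zipper transcription factor, stood at 152, 142 and 155 CPM in H-929 and 942, 918 and 881 CPM in RPMI, a difference of -2.61 ± 0.057, adjusted p = 2.41e-12. CCND2, a D-type cyclin that drives entry into S phase, stood at 113, 111 and 119 CPM against 1202, 1086 and 1199.7 CPM (-3.35 ± 0.063). Both genes were thus read in both lines, with groups that did not overlap. CX3CR1, the receptor of the chemokine fractalkine, was near 0 in H-929 (0.28, 0.317 and 0.201 CPM) and at 226, 239.9 and 265 CPM in RPMI. Of the 7 MAF-associated genes, 6 were higher in RPMI, 4 of them over 2-fold: CCND2, CX3CR1, RND3 (-2.51), a small GTPase, and DEPTOR (-1.42), an inhibitor of mTOR. The integrin subunit gene ITGB7 (-0.65) and the kinase gene NUAK1 (-0.78) were higher in RPMI by less, and CCR1, a chemokine receptor, was higher in H-929 (267, 279 and 232 CPM against 127, 124 and 121 CPM).

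For the MAF-associated genes, promoter windows from RefSeq (GRCh38.p14, 250 bases before to 50 after a start) were searched for TGCTGA on both strands, the half-site that MAF proteins are known to bind. It lies in 17.3% of 35116 such windows. The window of MAF itself and the third of the 3 windows of CX3CR1 hold 1 match each. The 2 windows of RND3 overlap and share 1 match, and no match lies in those of ITGB7, CCR1 and NUAK1. MAF, RND3 and CX3CR1 had the largest RPMI-side differences among the genes with a window. For each, a window that holds a match is shown, with the match in capitals, 5′ to 3′ on the minus strand:
MAF, chr16:79600688-79600987: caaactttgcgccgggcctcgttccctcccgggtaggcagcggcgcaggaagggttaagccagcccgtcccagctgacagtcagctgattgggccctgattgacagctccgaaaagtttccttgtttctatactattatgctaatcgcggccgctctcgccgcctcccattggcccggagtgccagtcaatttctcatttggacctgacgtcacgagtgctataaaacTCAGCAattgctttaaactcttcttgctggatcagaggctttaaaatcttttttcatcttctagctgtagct
RND3, chr2:150487646-150487945: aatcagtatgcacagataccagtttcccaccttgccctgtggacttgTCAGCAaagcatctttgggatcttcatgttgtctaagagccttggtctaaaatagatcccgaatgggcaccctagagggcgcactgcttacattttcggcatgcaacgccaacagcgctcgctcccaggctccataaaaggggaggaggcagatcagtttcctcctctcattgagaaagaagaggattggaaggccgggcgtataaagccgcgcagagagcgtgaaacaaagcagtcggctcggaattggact
CX3CR1, chr3:39280392-39280691: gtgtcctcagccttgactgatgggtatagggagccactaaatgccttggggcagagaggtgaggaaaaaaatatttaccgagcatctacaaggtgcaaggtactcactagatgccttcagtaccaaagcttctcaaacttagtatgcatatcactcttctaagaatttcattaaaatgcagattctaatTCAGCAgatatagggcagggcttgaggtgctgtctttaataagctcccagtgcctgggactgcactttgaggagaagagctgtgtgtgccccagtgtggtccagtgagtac
A match is a string of letters in a window and was not tested as a binding site.

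**Figure D1:**
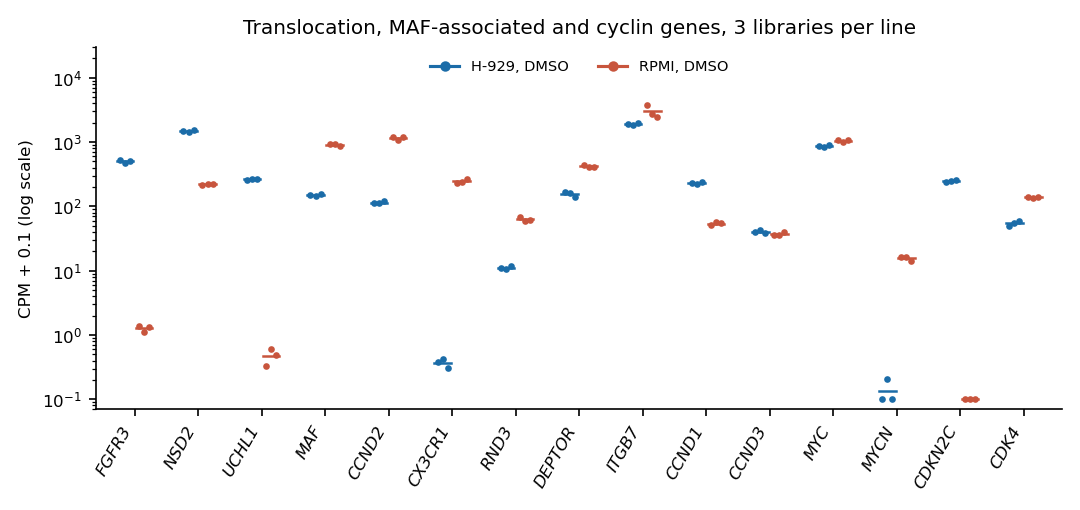
CPM plus 0.1 on a log axis for 15 genes of the translocation, MAF-associated and cell-cycle groups, H-929 in blue and RPMI in red, both under DMSO; points are the 3 libraries of a line and the short line is their mean. FGFR3, UCHL1 and CDKN2C sit high in H-929 alone, CX3CR1 and MYCN in RPMI alone, and MYC and CCND3 lie close together.

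The remaining translocation and cyclin genes were mixed. CCND1 was over 2-fold higher in H-929, at 227, 219 and 235 CPM against 51.3, 55.9 and 54.2 CPM (2.07 ± 0.056). CCND3 stood at 39.9, 42.1 and 39 CPM and 35.1, 35.6 and 39.3 CPM and missed the threshold (adjusted p = 0.117 in edgeR's test), though it passed under library totals or a stricter count minimum. MYC, the growth-driving transcription factor, was slightly higher in RPMI, 853, 837 and 886 CPM against 1058, 1012 and 1060.4 CPM (-0.28 ± 0.051). Its relatives were over 2-fold higher in RPMI. MYCN stood at 16.3, 16.4 and 13.8 CPM there against 2 counts in all in H-929, a ratio of 401-fold (95% counting interval 111 to 3310), and MYCL differed by -1.54. MAFA was low, at 0.616, 0.106 and 0.268 CPM against 1.28, 0.607 and 0.775 CPM. Its call was lost without replicate 2 or 3 of H-929 or replicate 1 or 3 of RPMI, with adjusted p of 0.0738 to 0.155 in edgeR's test. IGLL5, the immunoglobulin lambda-like gene, stood at 418, 451 and 396 CPM in H-929 and 3.9, 3.75 and 1.36 CPM in RPMI (7.25 ± 0.21), and the immunoglobulin constant genes were not analysed here.

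RPMI gave no read from CDKN2C, the cell-cycle inhibitor p18 that blocks CDK4 and CDK6, nor from its neighbour FAF1, a ubiquitin-binding adaptor of the FAS pathway. CDKN2C stood at 235, 246 and 260.2 CPM in H-929 and at 0 counts in all 3 RPMI libraries, at least 2031-fold higher against a floor of 3 counts per library. FAF1 stood at 92.5, 97.9 and 90.7 CPM in H-929, again against 0 counts in RPMI, at least 771-fold higher. CDKN2C was also at 0 in the 3 RPMI libraries treated with carfilzomib. The 6 carcinoma lines of the series, given as a check that the row can be read, all expressed FAF1 under DMSO, with line means of 73.1 to 114 CPM. The genes lie back to back on chromosome 1 (FAF1 chr1:50437028-50960263, CDKN2C chr1:50960745-50974633, GENCODE 29 on GRCh38). CDKN2C has 3 RefSeq start windows, and the first of its starts lies 478 bases from that of FAF1. Its other windows lie further from FAF1, at chr1:50968456-50968755 and chr1:50969995-50970294. The expressed genes on either side were read in RPMI: CMPK1 stood at 124 ± 3.53 CPM in H-929 and 283 ± 7.62 CPM in RPMI, and RNF11 at 50.2 ± 4.09 CPM in H-929 and 76.3 ± 2.93 CPM in RPMI. Whether the 2 genes are missing from the genome of RPMI or not transcribed cannot be told apart from RNA. The window of FAF1 and the first window of CDKN2C, each 5′ to 3′ on the strand of its gene, share 23 bases, shown in capitals because these are the genes with no read:
FAF1, chr1:50960218-50960517, minus strand: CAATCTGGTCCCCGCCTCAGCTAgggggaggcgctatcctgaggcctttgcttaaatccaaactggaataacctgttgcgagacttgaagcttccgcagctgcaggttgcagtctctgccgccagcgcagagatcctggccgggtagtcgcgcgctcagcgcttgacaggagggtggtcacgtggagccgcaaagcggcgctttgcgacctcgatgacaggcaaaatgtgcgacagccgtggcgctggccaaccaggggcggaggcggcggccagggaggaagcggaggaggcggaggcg
CDKN2C, chr1:50960495-50960794, plus strand: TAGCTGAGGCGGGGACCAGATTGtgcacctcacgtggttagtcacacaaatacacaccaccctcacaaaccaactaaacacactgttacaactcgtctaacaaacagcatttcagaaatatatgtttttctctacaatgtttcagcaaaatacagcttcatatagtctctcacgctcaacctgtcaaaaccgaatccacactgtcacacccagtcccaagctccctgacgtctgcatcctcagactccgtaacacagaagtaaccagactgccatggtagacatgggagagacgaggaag

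**Figure D2:**
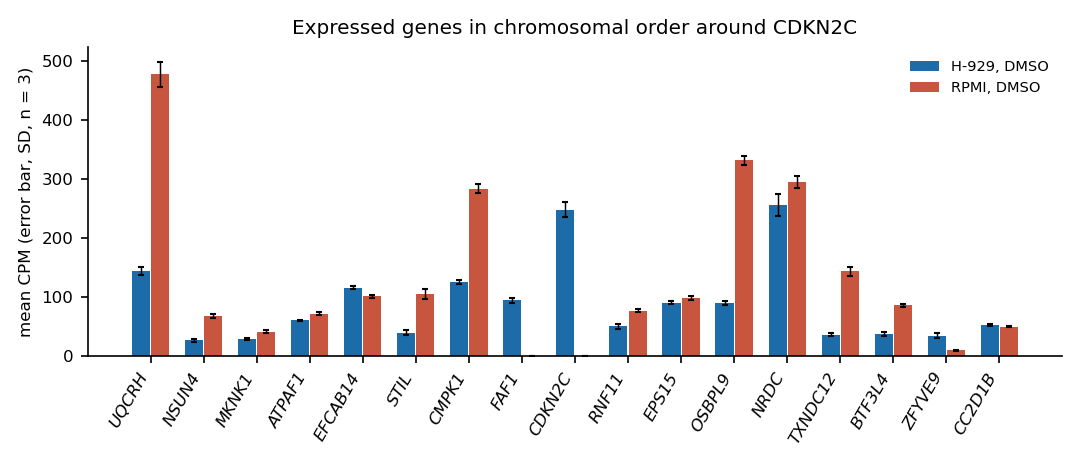
Mean CPM under DMSO with SD bars (n = 3) of 17 expressed protein-coding genes in their order along chromosome 1, H-929 in blue and RPMI in red. FAF1 and CDKN2C are at 0 in RPMI between CMPK1 and RNF11, which both lines expressed.

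Other cell-cycle brakes and engines were read in both lines. CDK4, a partner of the D-type cyclins, stood at 49.7, 54 and 59.5 CPM against 141, 134 and 139 CPM (-1.35 ± 0.067). RB1, the protein that CDK4 disables, was higher in RPMI (-0.82). CDKN2A, which encodes the inhibitor p16, stood at 57.9 ± 4.99 CPM in H-929 and 65.6 ± 3.24 CPM in RPMI, a difference of -0.18 at adjusted p = 0.0408 in edgeR's test.

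Both lines carried the plasma cell program, and H-929 carried most of it at a higher level. Of 19 plasma cell genes tested, 17 were higher in H-929 and 2 in RPMI, with 11 and 1 over 2-fold, and a list median of 1.96 against 0.0086 for all genes. The 17 of 19 stand beside 41% of all genes higher in H-929. PRDM1, which shuts down the B cell program, stood at 899, 875 and 975 CPM in H-929 and 108, 98.4 and 118 CPM in RPMI (3.08 ± 0.075). IRF4, on which myeloma cells depend, stood at 1882, 1963 and 1899 CPM against 530.0, 472 and 478 CPM (1.96 ± 0.059). XBP1, the ER expansion factor, stood at 2154, 2436 and 2141 CPM against 737, 628 and 619.8 CPM (1.76 ± 0.078). In each of these the lowest H-929 library lay above the highest RPMI library. The coactivator POU2AF1 (2.85), the elongation factor ELL2 (2.64) and the ER oxidoreductase TXNDC5 (3.15) were over 2-fold higher in H-929 as well. JCHAIN, the joining chain of IgA and IgM, was close, at 4794 ± 134 CPM in H-929 and 3890.2 ± 398 CPM in RPMI, and MZB1, an ER chaperone of antibody assembly, was higher in RPMI (-0.84).

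Surface antigens used to recognise or treat myeloma differed by line. SDC1 (CD138) stood at 502, 536 and 482 CPM and 387, 366 and 382 CPM, and CD38 at 103, 101 and 94 CPM and 80.01, 53 and 48.1 CPM, both slightly higher in H-929. TNFRSF17 (BCMA) was over 2-fold higher in H-929, at 327, 369 and 338 CPM against 64.7, 50.4 and 54.1 CPM (2.62 ± 0.087). SLAMF7 stood at 343, 369 and 319 CPM against 10.5, 8.22 and 8.22 CPM (5.29 ± 0.096), and GPRC5D at 153, 164 and 167 CPM against 8.67, 7.32 and 7.69 CPM (4.37 ± 0.077). FCRL5 was also higher in H-929 (5.34). TNFRSF13B (TACI), which like BCMA binds the survival ligands BAFF and APRIL, ran the other way: 0.168, 0.0528 and 0 CPM in H-929 and 26.4, 25 and 21.1 CPM in RPMI. The BCMA gene was thus the higher in H-929 and the TACI gene the higher in RPMI.

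B cell genes that plasma cells are known to switch off differed in both directions. Of 16 tested, 5 were higher in H-929 and 9 in RPMI, 4 over 2-fold each way. The shares over all genes were 41% in each direction, and 23.3% (H-929) and 19.2% (RPMI) over 2-fold. CD79B, a chain of the B cell receptor, stood at 25.1, 27.5 and 30.2 CPM in H-929 and 0.0582, 0.0714 and 0.0553 CPM in RPMI. MS4A1 (CD20) stood at 1 count in all in the H-929 libraries and at 9.89, 9.54 and 8.0 CPM in RPMI, a ratio of 473-fold (95% counting interval 84.9 to 18700). CR2, a complement receptor, stood at 1.62, 1.48 and 2.21 CPM against 122, 132 and 135 CPM (-6.21 ± 0.11). PAX5, a defining B cell gene, was under 1 CPM in every library and did not pass the count filter.

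Marker genes of other cell types were checked over whole lists. Of 8 epithelial genes, 6 were tested and all 6 were higher in RPMI, 4 over 2-fold: EPCAM stood at 1 count in all in H-929 and at 105, 106 and 106 CPM in RPMI, and KRT7 at 0.224, 0.898 and 0.201 against 12.1, 12.7 and 12.1 CPM. The 8 epithelial genes summed to 42.4 to 55.2 CPM in H-929 and 216 to 221 CPM in RPMI, most of it EPCAM and KRT18 in RPMI. The epithelial genes KRT19 and ELF3 were at or near 0 in both lines. Of 7 T and natural killer cell genes 4 were tested, 3 higher in H-929 and 1 in RPMI, each over 2-fold. In DESeq2's Wald test, CDH1 (RPMI side, adjusted p = 0.0755) and CD4 (H-929 side, adjusted p = 0.138) lost their over 2-fold calls. CD3E stood at 21.4, 18.3 and 20.1 CPM in H-929 (0.0582, 0 and 0.083 in RPMI), while CD3D was at 0 counts in all 6 libraries. The 7 genes summed to 25 to 26.6 CPM in H-929 and 3.14 to 4.59 CPM in RPMI. Of 8 myeloid genes 3 were tested, 1 higher in H-929 and 2 in RPMI, with 0 and 1 over 2-fold. CD33 stood at 41.7, 43.5 and 45.8 CPM in RPMI against 0.672, 0.211 and 0.536 CPM in H-929, while MPO and S100A8 were near 0. No erythroid gene of 6 passed the count filter, and 1 of 8 stromal or endothelial genes did, COL1A1, with no call (adjusted p = 0.276 in edgeR's test). The part of these markers in other differences was not tested.

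**Figure D3:**
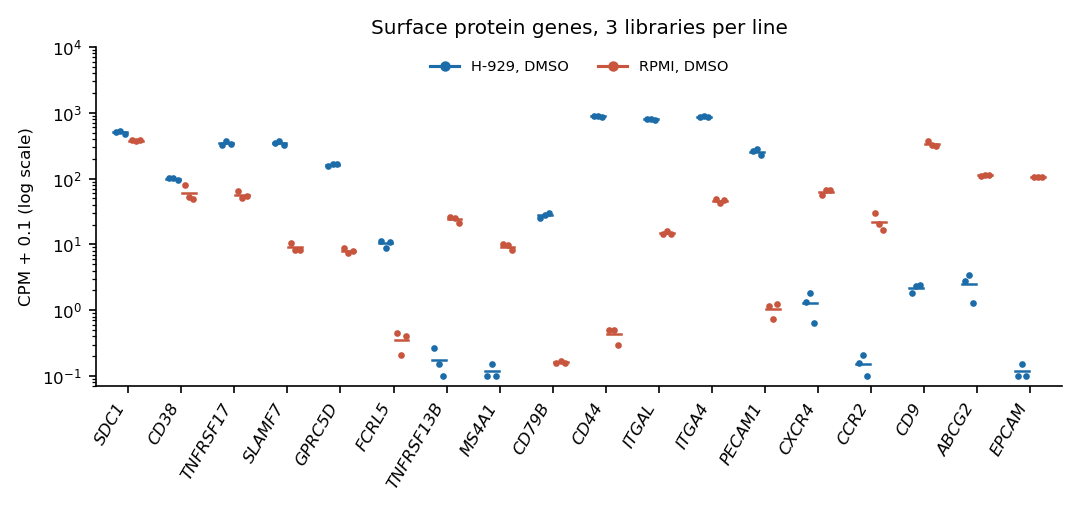
CPM plus 0.1 on a log axis for 18 genes of surface proteins, H-929 in blue and RPMI in red under DMSO; points are the 3 libraries of a line and the short line is their mean. SDC1 and CD38 lie close, CD44, PECAM1 and CD79B are near the floor in RPMI, and MS4A1, CCR2 and EPCAM are near the floor in H-929.

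Homing and adhesion genes split evenly and by wide margins. Of 26 tested, 13 were higher in each line, and 9 over 2-fold in each. CD44, the hyaluronan receptor, stood at 900.2, 886 and 870.5 CPM in H-929 and 0.407, 0.393 and 0.194 CPM in RPMI (11.46 ± 0.11). The integrin genes ITGAL (5.75) and ITGA4 (874, 879.6 and 872 CPM against 49.4, 42.8 and 46.5 CPM) were over 2-fold higher in H-929, as was PECAM1 (8.08), an endothelial and leukocyte adhesion molecule. On the RPMI side stood the tetraspanin CD9 (1.74, 2.22 and 2.34 CPM against 367, 319.7 and 311 CPM), the integrin subunit ITGA5 (15.7, 14.4 and 14.9 CPM against 1 count in all in H-929) and ITGAV (-2.52). CXCR4, the receptor that keeps plasma cells in the marrow, stood at 1.23, 1.74 and 0.536 CPM in H-929 and 56.7, 66.1 and 66.2 CPM in RPMI (-5.70 ± 0.20). Its ligand CXCL12, named after its values were seen, was at 0 counts in all 3 H-929 libraries and at 47, 64 and 59 CPM in RPMI, at least 322-fold higher. CCR2 stood at 29.4, 20.2 and 16.2 CPM in RPMI against 3 counts in all in H-929, a ratio of 378-fold (95% counting interval 129 to 1830).

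Growth factor genes showed ligand and receptor on opposite sides in 1 case. HGF, the scatter factor, stood at 0.168, 0.0528 and 0.0669 CPM in H-929 and 20.9, 19.4 and 18.5 CPM in RPMI, while its receptor MET stood at 22.4, 24.1 and 20.7 CPM in H-929 and 0.291, 0.214 and 0.526 CPM in RPMI. IL6R, the receptor chain for interleukin 6, stood at 549, 545 and 506 CPM against 40.8, 48.3 and 49.5 CPM (3.52 ± 0.076), while the shared signalling chain IL6ST was at 198 ± 14.1 CPM in H-929 and 236 ± 10.8 CPM in RPMI. IGF1 (2.75) and the insulin receptor INSR (1.24) were over 2-fold higher in H-929, and CD28 (-1.82) and FGFR2 (-3.71) in RPMI. Of 16 genes tested, 7 were higher in H-929 and 8 in RPMI (all genes, 41% each way), with 6 and 4 over 2-fold.

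Genes read as output of the ERK kinase pathway, which FGFR3 and other receptors feed, leaned to H-929. Of 17 tested, 9 were higher in H-929 and 4 in RPMI, with 8 and 2 over 2-fold. Over all genes, 41% were higher and 23.3% over 2-fold higher in H-929. The part of FGFR3 in this list was not tested. The immediate early gene EGR1 stood at 68.7, 66.9 and 69.6 CPM against 10.4, 5.14 and 4.48 CPM (3.44 ± 0.22), and the phosphatase genes DUSP5 (2.32) and DUSP6 (1.87) and the feedback inhibitor SPRY1 (3.01) were over 2-fold higher in H-929. PHLDA1 stood at 61, 66.3 and 55.2 CPM against 2.91, 2.71 and 2.44 CPM. The transcription factor ETV1 went the other way (1.06, 1.64 and 0.937 CPM against 35.4, 33.1 and 30.4 CPM), and ETV4 and SPRED2 showed no call. The 2 other H-929-side genes with the widest differences, SPRY2 and EPHA4, were under 4 CPM in every library.

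WNT and bone genes are of interest in myeloma because it dissolves bone. Of 9 tested, 7 were higher in H-929 and 2 in RPMI, with 6 and 0 over 2-fold. The transcription factor LEF1 stood at 32, 34.6 and 36 CPM in H-929 and 0.233, 0.357 and 0.166 CPM in RPMI, and its cofactor BCL9 at 106, 104 and 114 CPM against 16.1, 19 and 17.4 CPM. AXIN2 (1.77) and the receptor LGR4 (2.21) were over 2-fold higher in H-929, while CTNNB1, the gene of beta-catenin, was higher in RPMI (-1.09). DKK1, the WNT inhibitor known from myeloma bone disease, was low in H-929 (1.23, 1.59 and 0.937 CPM) and at 1 count in all in RPMI.

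**Figure D4:**
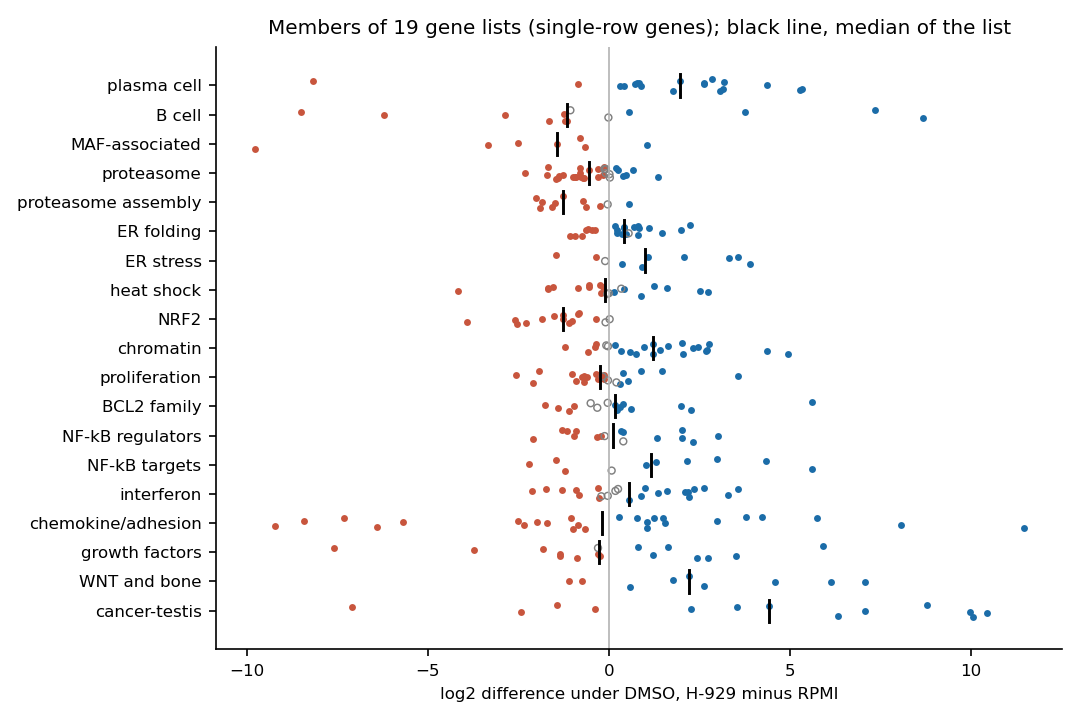
Log2 difference under DMSO, H-929 minus RPMI, for the tested genes of 19 lists that have a single row in the count table; blue points were higher in H-929 and red points in RPMI at an adjusted p under 0.05, open points were not called, and black lines are list medians. The NRF2, proteasome assembly and MAF-associated medians lie left of 0 and the plasma cell, chromatin and cancer-testis medians right of it.

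Proteasome genes, which encode the target of carfilzomib, were mostly higher in RPMI. Of 32 tested, 20 were higher in RPMI and 6 in H-929, with 7 and 1 over 2-fold and a list median of -0.43, where 41% of all genes were higher in RPMI. Among core particle genes, PSMB1 stood at 50.2, 47.6 and 45.1 CPM in H-929 and 237, 239 and 233 CPM in RPMI (-2.31 ± 0.057), and PSMA2 at 84, 99 and 79.5 against 276, 289 and 291 CPM (-1.70 ± 0.075). PSMB5, the gene of the catalytic subunit that carfilzomib binds, stood at 43.5, 39.4 and 44.2 CPM against 87.5, 82.4 and 83.7 CPM, a difference of -0.997 ± 0.064. ADRM1, the ubiquitin receptor of the cap, was over 2-fold higher in H-929 (1.36). Of 11 assembly and control genes, 9 were higher in RPMI and 1 in H-929, with 6 over 2-fold in RPMI. They include the chaperones PSMG1 (-2.01), PSMG2 (-1.84) and POMP (-1.48). NFE2L1, the transcription factor that raises proteasome genes after inhibition, differed by only -0.25. Most immunoproteasome genes have several rows in the table, and PSMB10, the only 1 with a single row, was higher in RPMI (-0.67).

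ER folding genes and stress sensors leaned to H-929. Of 25 folding genes, 17 were higher in H-929 and 7 in RPMI, with 6 and 0 over 2-fold. Over all genes, 41% were higher and 23.3% over 2-fold higher in H-929, so the over 2-fold count there stands near the share of all genes. HSPA5, the main ER chaperone BiP, stood at 1047, 1145 and 996 CPM against 481, 489 and 508 CPM (1.11 ± 0.06). SDF2L1 (2.24) and the ER ligase SYVN1 (1.99) were over 2-fold higher in H-929. PDIA6 (-0.92) and DERL1 (-1.08) were higher in RPMI. CANX and HYOU1 showed the widest differences of the list, but each has 2 rows in the table, and with its rows summed CANX differed by 0.07 and was no longer called. Among 10 stress sensor and effector genes, 7 were higher in H-929 and 2 in RPMI. EIF2AK3, the sensor kinase PERK, stood at 533, 562 and 498 CPM against 53.2, 53.3 and 53.5 CPM (3.32 ± 0.06), and PPP1R15A, which reverses its signal, at 215, 217 and 209 CPM against 22.1, 17.7 and 14.9 CPM (3.58 ± 0.11). TRIB3 was over 2-fold higher in RPMI (-1.45).

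The heat shock list had no common direction, with 7 of 20 genes higher in H-929 and 10 in RPMI, and 4 over 2-fold each way. These counts stand near the shares of all genes, 41% in each direction, and 23.3% (H-929) and 19.2% (RPMI) over 2-fold. HSPE1 and HSPD1, the mitochondrial chaperonin pair that share a promoter region, were both higher in RPMI. HSPE1 stood at 9.52, 10.4 and 7.7 CPM against 164, 164 and 169 CPM (-4.16 ± 0.086) and HSPD1 at 661, 689 and 623 CPM against 1936, 1886 and 1962 CPM (-1.55 ± 0.055). The inducible genes DNAJB1 (-1.69) and HSPH1 (-1.67) were over 2-fold higher in RPMI, and HSP90AA1 (1.24) and HSPA4L (1.62) in H-929. HSPA8, the constitutive HSP70, was at 3320.4 ± 134 CPM in H-929 and 2994 ± 188 CPM in RPMI. HSPA1A and HSPA1B have 4 rows each in the table and are not read here.

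No gene of the NRF2 list was higher in H-929. NRF2, encoded by NFE2L2, is the transcription factor of the antioxidant response, and of the 15 genes, NFE2L2 and its inhibitor among them, 13 were higher in RPMI, 8 over 2-fold, with a list median of -1.25, where 41% and 19.2% of all genes were. NQO1, a quinone reductase, stood at 7.78, 7.03 and 4.75 CPM in H-929 and 80.6, 104 and 110.4 CPM in RPMI (-3.90 ± 0.16). The 2 subunits of glutathione synthesis, GCLC (16.1, 20.8 and 15.9 against 96.5, 109.9 and 110.0 CPM) and GCLM (9.29, 8.61 and 9.98 against 46.8, 58.3 and 57.3 CPM), did not overlap between the lines. HMOX1, the heme oxygenase, varied within RPMI (45.2, 96.7 and 114 CPM) and was still over 2-fold higher there (-2.30 ± 0.27). NFE2L2 itself (-0.09, adjusted p = 0.221) and its inhibitor KEAP1 (0.03, adjusted p = 0.647) were the 2 members with no call in edgeR's test.

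NF-kB regulators and targets differed in both directions. Of 16 regulators, 7 were higher in each line, 5 over 2-fold in H-929 and 2 in RPMI. The shares over all genes were 41% in each direction, and 23.3% (H-929) and 19.2% (RPMI) over 2-fold, so the regulators stand near them. TRAF3, a brake of the noncanonical pathway, stood at 49.7, 46.8 and 52.9 CPM against 8.67, 9.54 and 11 CPM (2.34 ± 0.10), and NFKB2 (2.04), RELB (2.03) and REL (3.03) were also over 2-fold higher in H-929. BIRC3, a ligase that works with TRAF3, was over 2-fold higher in RPMI, at 5.37, 4.86 and 4.89 against 30.5, 18.5 and 15.8 CPM. So was TRAF2, an adaptor of the same complex, at 18, 17.5 and 25.2 against 48.2, 50.8 and 49.4 CPM (-1.30 ± 0.12). The over 2-fold call of TRAF2 was lost without replicate 1 or 2 of H-929 (adjusted p of 0.0515 and 0.0503 in edgeR's test), with a minimum of 50 counts (0.0583) and in DESeq2's Wald test (0.0752). Under each of those settings BIRC3 was the 1 regulator over 2-fold higher in RPMI. Of 11 targets tested, 7 were higher in H-929 and 3 in RPMI, 6 and 3 over 2-fold. The feedback genes NFKBIA (1.31), TNFAIP3 (2.16) and BCL3 (4.34) were on the H-929 side, and TRAF1 (-2.20) and ICAM1 (-1.21) on the RPMI side.

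The lines favoured different antiapoptotic genes. MCL1, on which plasma cells are known to rely, stood at 1214, 1334 and 1178 CPM in H-929 and 347, 308 and 284 CPM in RPMI (1.99 ± 0.078). BCL2L1 (BCL-XL) stood at 19.99, 21.6 and 21 CPM against 65.3, 70.2 and 75.4 CPM (-1.75 ± 0.077), and BCL2 was also higher in RPMI (-0.96). Among the proapoptotic genes, BMF was over 2-fold higher in H-929 (2.29) and BAD in RPMI (-1.41), while BCL2L11 (BIM) differed by 0.22. Of 15 family genes, 8 were higher in H-929 and 4 in RPMI, where 41% of all genes were higher in each line. MDM2, a ubiquitin ligase gene, stood at 1512, 1568 and 1562 CPM against 203, 227 and 263 CPM (2.74 ± 0.084), CDKN1A, a cell-cycle inhibitor, was over 2-fold higher in H-929 (1.37), and FAS, a death receptor, was over 2-fold higher in RPMI (-2.002).

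Proliferation genes gave no single direction either. MKI67, the Ki-67 marker, stood at 1281, 1239 and 1315 CPM in H-929 and 102, 112 and 111 CPM in RPMI (3.56 ± 0.06). PCNA, the sliding clamp of DNA replication, ran the other way, 60.6, 61.2 and 68.7 CPM against 352, 376 and 386 CPM (-2.55 ± 0.065), as did CDK1 (-2.09), CCNB2 (-1.92) and MCM2 (-1.01). Of 22 genes, 13 were higher in RPMI and 6 in H-929, against 41% of all genes each way, with 3 and 2 over 2-fold. MKI67 alone would therefore order the lines opposite to most of the list.

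Large chromatin regulators were mostly higher in H-929. Of 24 tested, 18 were higher in H-929 and 4 in RPMI, with 13 and 1 over 2-fold and a median of 1.23, where 41% and 23.3% of all genes were higher and over 2-fold higher in H-929. The H3K4 methyltransferase genes KMT2D (298, 256 and 348 CPM against 39.8, 49.7 and 48.5 CPM, 2.70 ± 0.11) and KMT2A (2.04), the acetyltransferase genes EP300 (2.47) and CREBBP (1.65), and the remodeller ARID1A (2.34) were over 2-fold higher in H-929. TET1, a DNA demethylase, stood at 28.2, 28.7 and 28.1 CPM against 0.873, 0.822 and 1.02 CPM (4.94 ± 0.15), and TET2 was over 2-fold higher in H-929 as well (2.70). EED, a Polycomb subunit, was over 2-fold higher in RPMI (-1.20), a call lost with a minimum of 50 counts (adjusted p = 0.0873 in edgeR's test) and in DESeq2's Wald test (adjusted p = 0.104), while EZH2 (-0.56) and SUZ12 (-0.35) were higher there by less. Transcript length moved with this list: 12 of its 24 genes lie in the tenth of expressed genes with the longest exons, whose median difference was 0.11, against -0.29 in the tenth with the shortest. The part of length in the list was not tested.

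Interferon-response genes leaned to H-929 but varied within it. Of 25 tested, 14 were higher in H-929 and 7 in RPMI, with 9 and 3 over 2-fold, where 41% and 23.3% of all genes were higher and over 2-fold higher in H-929. MX1, an antiviral GTPase, stood at 276, 295 and 154 CPM in H-929 and 34.7, 14.2 and 15.4 CPM in RPMI (3.57 ± 0.31). OAS2, an RNA sensor, stood at 167, 176 and 107 CPM against 19.8, 14.6 and 13.1 CPM (3.28 ± 0.19). In both genes the third H-929 library lay lowest of its line yet above every RPMI library, and both stayed over 2-fold higher without it. IFIT5 was over 2-fold higher in RPMI (-2.11). The sensor IFIH1 (-1.29) and GBP1 (-1.73) passed that test on the RPMI side narrowly, and lost it in 8 and 7 of the alternative analyses. Without replicate 1 of H-929, or without replicate 1 of RPMI, the count of interferon genes over 2-fold higher in RPMI went from 3 to 1.

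Antigen presentation can be read only in part, since 10 of 13 class I and 10 of 13 class II genes have several rows that share an identifier. CD74, the invariant chain of class II, has 1 row and stood at 2.13, 2.11 and 2.41 CPM in H-929 and 167, 128 and 126 CPM in RPMI (-5.98 ± 0.15). Its regulator CIITA was higher in RPMI (-1.24). NLRC5, the class I regulator, was over 2-fold higher in RPMI (-1.42). For HLA-B the direction depended on the rows: its first row was higher in H-929 (3.84), and its 4 rows summed were higher in RPMI (-1.65). B2M was higher in RPMI either way (-2.49 for its first row and -2.42 summed).

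Genes bearing on drugs used in myeloma were compared as well. ABCG2, an efflux pump, stood at 2.69, 3.38 and 1.21 CPM in H-929 and 111, 113 and 112 CPM in RPMI (-5.48 ± 0.16). ABCB1, the efflux pump that is known to carry carfilzomib, was low in both, 3.69, 2.48 and 2.88 CPM and 0.116, 0 and 0.083 CPM. CRBN, the target of lenalidomide, differed little, 24.9, 25.5 and 23.9 CPM against 30.7, 31.3 and 32.7 CPM (-0.35), while its degraded substrate IKZF3 was over 2-fold higher in H-929 (1.66). XPO1, the nuclear exporter that selinexor binds, was over 2-fold higher in RPMI (-1.91), and NR3C1, the glucocorticoid receptor, stood at 262 ± 5.34 CPM in H-929 and 259 ± 4.31 CPM in RPMI with no call (adjusted p = 0.749 in edgeR's test).

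Cancer-testis genes, normally confined to the germ line, were read in both lines but from different members. Of 13 tested, 9 were higher in H-929 and 4 in RPMI, with 9 and 3 over 2-fold. The shares over all genes were 41% in each direction, and 23.3% (H-929) and 19.2% (RPMI) over 2-fold. CTAG2 was over 2-fold higher in RPMI, a call lost in some settings. These include leaving out replicate 2 of H-929 (adjusted p = 0.0873 in edgeR's test) and DESeq2's Wald test (adjusted p = 0.248). MAGEC1 stood at 221, 242 and 227 CPM in H-929 and 0.233, 0.107 and 0.166 CPM in RPMI, and MAGEA4 at 232, 260.4 and 239.9 CPM against 0.233, 0.214 and 0.249 CPM. SSX1 was at 97, 95.9 and 108 CPM against 0.175, 0.429 and 0.083 CPM. PAGE1 was the reverse, 0.056, 0.264 and 0.0669 CPM against 18.6, 18.3 and 20.2 CPM, and MAGEC2 was over 2-fold higher in RPMI (-2.42). MAGEA1 was read in both, at 63.2 ± 2.76 CPM in H-929 and 81.9 ± 5.44 CPM in RPMI (-0.37). Members of these families are near-identical in places, so the split of reads among them is uncertain.

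Ranked over all genes by the ratio of mean CPM, the widest protein-coding differences were genes read almost only in 1 line. On the H-929 side NES, the intermediate filament nestin, stood at 3845, 3771 and 3714 CPM against 0.407, 1.07 and 0.996 CPM (12.04 ± 0.13). AMPD1, an AMP deaminase, stood at 443, 444 and 346 CPM against 0.233, 0.25 and 0 CPM, and the cytokine gene IL32 at 402, 415 and 326 CPM against 0.116, 0.25 and 0.166 CPM. GSTP1, a glutathione transferase, stood at 189, 209.6 and 182 CPM against 2 counts in all in RPMI, a ratio of 7870-fold (95% counting interval 2180 to 65000). GRIK4, a glutamate receptor, was at 143, 131 and 155 CPM against 0 counts in RPMI, at least 1175-fold higher. The other genes ranked there were CD44, CDKN2C, PPP1R16B (11.04), H1-5, MLC1 (10.60), PTPRS (10.48), MAGEC1, LAMP5 (10.31), MAGEA4 and TENM3 (3 counts in all in RPMI).

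On the RPMI side PEG10, a retrotransposon-derived imprinted gene, stood at 0.112, 0.0528 and 0.0669 CPM in H-929 and 444, 448 and 474 CPM in RPMI (-12.42 ± 0.13). LAPTM5, a lysosomal protein of blood cells, stood at 0.28, 0.159 and 0.134 CPM against 403, 378 and 368 CPM (-10.91 ± 0.12). SPP1 (osteopontin), a bone matrix protein and CD44 ligand, stood at 0.616, 0.264 and 0.201 CPM against 533, 378 and 365 CPM (-10.15 ± 0.26). CD8B, the coreceptor chain of T cells, stood at 439, 463 and 428 CPM in RPMI against 2 counts in all in H-929, and its near-identical copy CD8B2 at 233, 249.7 and 227 CPM, so their split is uncertain. CD8A was at 2.09, 3.04 and 3.1 CPM in RPMI. MAL stood at 175, 181 and 186 CPM in RPMI against 1 count in all in H-929, and the keratin KRT15 at 83.8, 98.5 and 99.8 CPM against 0 counts. The others were ASXL3 (-10.01), CGNL1 (-10.48), CX3CR1, BCHE (-10.64), TNFRSF18 (-10.33), RNF180 (-9.22), EPCAM and NETO1 (-9.26).

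Among genes that encode no protein, FIRRE stood at 125, 128 and 112 CPM in H-929 against 0.233, 0.25 and 0.138 CPM in RPMI, and the pseudogene OR7E12P at 48.9, 40.6 and 54.3 CPM against 0 counts. The 5S-like pseudogenes RNA5SP429, RNA5SP149 and RNA5SP226 were at 0 counts in RPMI, and RNA5SP226 rested on 1 H-929 library (4.93, 2.59 and 144 CPM). In RPMI, LINC02009 stood at 281, 297 and 291 CPM against 2 counts in all, LINC01287 at 161, 168 and 162 CPM against 0, and AFAP1-AS1 (-7.87), TBC1D27P (-7.64) and PSPHP1 (-7.78) followed. AFAP1-AS1 is an antisense transcript, and the use of strand in counting is not given in the sources used here.

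Genes read in only 1 line were rare among expressed genes. With a mean of at least 20 CPM in 1 line and at most 3 counts in every library of the other, 44 genes with a single row were found for each line. A fixed set of genes not reported here was then left out. This left 44 genes for H-929, 36 of them protein-coding, and 37 for RPMI, 33 of them protein-coding. The protein-coding ones are 0.517% of the 6964 and 0.459% of the 7191 protein-coding genes that reach that level in the line. Counting only single-row protein-coding genes that reach 20 CPM in either line, a few were adjacent in chromosomal order. Besides FAF1 and CDKN2C these were BEX2 and BEX3 in H-929. In RPMI they were AKR1C2 and AKR1C3, KRT15 and KRT16, CD8B2 and ST6GAL2, and PCP4 and DSCAM. Genes below that level can lie between the members of a pair. DSCAM, a neuronal adhesion molecule, stood at 69.8, 88.6 and 86.6 CPM in RPMI against 0 counts in H-929. AKR1C2 and AKR1C3, aldo-keto reductases known as NRF2 targets and similar in sequence, stood at 24.8, 42.6 and 38.2 CPM and 53.4, 101 and 84.6 CPM in RPMI.

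Differences were also laid out along the chromosomes. Of 278 windows of 10 Mb with at least 10 expressed protein-coding genes (8 CPM in either line), 8 had a median above 1 and 26 a median below -1. The median of all 9836 genes used was -0.18. In the window chr7:10000001-20000000, all 13 genes were higher in RPMI, with a median of -2.55. At the far end of chromosome 11 the median was 1.61 for chr11:120000001-130000000, where 38 of 40 genes were higher in H-929 and 1 in RPMI, and 1.85 for the next window. By whole chromosome the medians ran from -0.81 for chromosome 7, where 334 of 459 genes were higher in RPMI, to 0.36 for chromosome 22. Under carfilzomib the medians of these 3 windows were -2.63, 1.43 and 1.26. Neighbouring genes are not independent, and DNA copy number was not measured here.

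**Figure D5:**
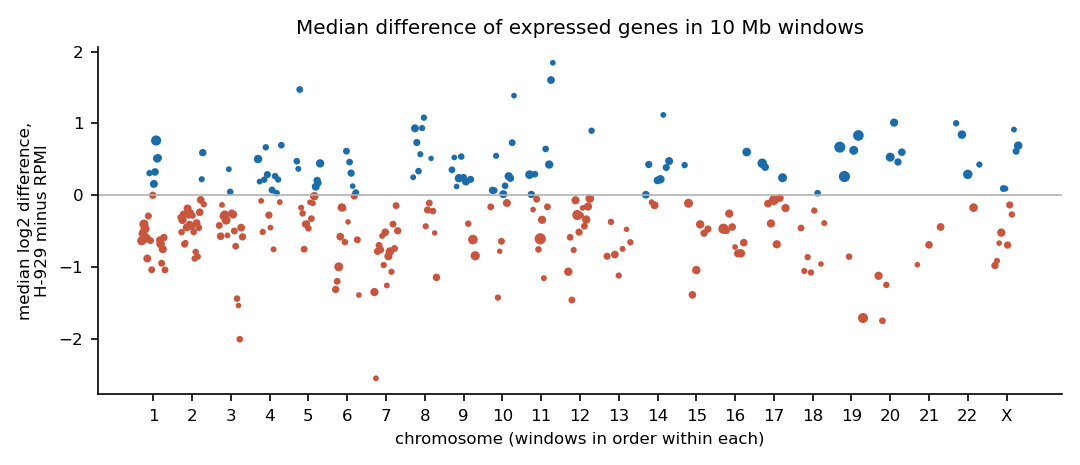
Median log2 difference under DMSO, H-929 minus RPMI, of expressed protein-coding genes in windows of 10 Mb, in order within each chromosome; larger points hold more genes, blue is above 0 and red below. The lowest point, on chromosome 7, is at -2.55 and the highest, at the end of chromosome 11, at 1.85.

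The 6 carfilzomib libraries of the same lines, which share no library with the DMSO comparison, showed how many of these differences were met under another condition. There, 77.7% of 16355 genes were called. Of the 6714 genes over 2-fold under DMSO, 6290 were tested again, of which 5708 (90.7%) were called in the same direction, 95 in the opposite direction and 487 in neither. FGFR3 (9.48), NSD2 (2.83), UCHL1 (7.81) and CD44 (10.15) kept their direction. The difference was smaller under carfilzomib for UCHL1, by a change of -1.44 (adjusted p = 1.98e-05 in edgeR's interaction test), and for CD44, by -1.20 (adjusted p = 0.00861). MAF stood at 153, 164 and 164 CPM in H-929 and 344, 315 and 297 CPM in RPMI, and its difference was -0.99, with a change of 1.72 between the treatments (adjusted p = 5.55e-10 in edgeR's test). CCND2 (-4.03), CX3CR1 (-5.32) and RND3 (-3.28) kept their direction, with a smaller difference than under DMSO for CX3CR1. DEPTOR (-0.04), ITGB7 (adjusted p = 0.991 in edgeR's test), NUAK1 (-0.09) and CCR1 (0.19) were no longer called. DNAJB1, a heat shock gene, stood at 1170.2, 1213 and 1308 CPM and 913, 1184 and 1325 CPM and was no longer called (0.11, adjusted p = 0.367 in edgeR's test).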

How the data were processed

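RNA was sequenced from cells after 24 h (per the labels' protocols: Qiazol RNA, TruSeq Stranded TotalRNA kit). Raw read counts per gene were deposited by the authors in 1 table of 33892 rows, with 0 columns unused. Per the submitters' processing notes, bcl2fastq 2.19, FastQC, Trimmomatic, HISAT2, DESeq2 and hg38 were used. The counting program, annotation and use of strand are not given in the sources used here, so overlapping and antisense genes are uncertain. Some rows (4803) share an Ensembl identifier with another row, and 29680 rows (87.6%) matched GENCODE 29.

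The 6 DMSO libraries were fitted in edgeR 4.0.16 (R 4.3.3) with TMM factors, filterByExpr, the quasi-likelihood F test and, for 2-fold, glmTreat. Alternatives used DESeq2 1.42.0. Figures used matplotlib 3.10.9. Scripts were tested on simulated data. Floors are 3 counts per library, and 95% intervals cover counting error only. Named genes, 172 in all, are the translocation, MAF- and NSD2-associated lists, up to 3 over 2-fold members per direction of each other list, and genes ranked by ratio. Where a list had no member over 2-fold, the called member with the largest difference per direction was taken. The ranked genes are the first 15 protein-coding and 5 other genes per direction. They were over 2-fold, with a single row, no overlap and at least 50 mean counts in the higher line. Other list members serve as examples. Some list members are not reported here. Members and the 34 gene lists were chosen with earlier results of these data known. Summing rows that share an identifier was chosen after seeing the data. Same-numbered replicates did not deviate together (r = 0.0085, -0.018 and 0.053).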

Additional observations from a re-analysis of the deposited data

Results flagged for a closer look

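For 18 genes with a mean of at least 20 CPM in 1 of the 4 groups, the difference between the lines turned around between the treatments, being over 2-fold one way under DMSO and over 2-fold the other way under carfilzomib. Each value here is the change of the log2 difference, carfilzomib minus DMSO, tested as an interaction in edgeR over the 12 libraries, and the causes were not tested.

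Among the genes over 2-fold in opposite directions under the 2 treatments were 5 interferon-response genes, MX1, IFI44, XAF1, MX2 and IFIT2. MX1 stood at 276, 295 and 154 CPM in H-929 and 34.7, 14.2 and 15.4 CPM in RPMI under DMSO, and at 64.2, 117 and 104 CPM and 287, 218 and 238 CPM under carfilzomib, a change of -4.84. IFI44 changed by -4.87, XAF1 by -4.62, MX2 by -4.07 and IFIT2 by -3.70. The third H-929 DMSO library was the lowest of its line for all 5 genes. For IFI44 (6.33, 8.09 and 1.07 CPM) it lay below the first and second RPMI libraries (1.63, 1.21 and 0.858 CPM).

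The ER chaperone gene HSPA5 stood at 1047, 1145 and 996 CPM in H-929 and 481, 489 and 508 CPM in RPMI under DMSO, and at 699.9, 675 and 625 CPM and 1868, 1588 and 1879.6 CPM under carfilzomib, a change of -2.42. The change was -3.81 for NIBAN1, -3.01 for both GAB2 and SERPINB8, -2.98 for the autophagy gene GABARAPL1, -2.67 for the serine synthesis gene PSAT1 and -2.55 for the inflammasome sensor gene NLRP1.

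The other direction, higher in RPMI under DMSO and higher in H-929 under carfilzomib, held 6 of the genes. MYCL stood at 5.32, 4.12 and 5.09 CPM in H-929 and 14.5, 14.8 and 12.8 CPM in RPMI under DMSO, and at 95.2, 106 and 122 CPM and 32.9, 36.8 and 41.7 CPM under carfilzomib, a change of 3.17. The change was 5.43 for FUT6, 4.63 for TSPOAP1, 4.17 for the Notch feedback gene NRARP, 3.31 for HES6 and 2.84 for the neuropeptide gene NMB. In all, 38 genes were over 2-fold in opposite directions under the 2 treatments, 37 of them with a single row. That choice fixes a large change between the treatments, so the interaction test adds no support for these genes.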

How the results depend on the processing

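Over the alternatives, the counts of genes higher in either line stayed within 1.5 times those reported: other scaling factors, no count filter, a minimum of 50 mean counts, DESeq2's Wald test, all 24 DMSO libraries in 1 fit, a null fold of 1.5, thinning to the lowest total, and leaving out or summing rows that share an identifier. With a replicate block, 6363 genes were higher in H-929 and 6409 in RPMI, 3610 and 2994 over 2-fold, and 5604 kept their direction under carfilzomib. Leaving out 1 library at a time gave 6412 to 6650 genes higher in H-929, 6282 to 6529 in RPMI, and 3733 to 3835 and 2943 to 3084 over 2-fold. Counting all genes called under DMSO rather than those over 2-fold, 9720 of 12434 (78.2%) kept their direction under carfilzomib. Of 2895 values for the 172 named genes, 2880 kept direction and side of the threshold. HLA-B turned to -1.65 with its rows summed. Calls were lost for MAFA, MYC, ITGB7, PSME2 and CANX in 12 values, and CCND3 was called in 2 (0.17 with library totals, 0.24 with a minimum of 50 counts). Over 2-fold calls were lost in some setting for 9 genes, among them TRAF2 (without replicate 1 or 2 of H-929) and IRF9 (without replicate 1 of H-929). Small list counts moved by over 1.5 times in places: with a minimum of 50 mean counts, B cell genes over 2-fold higher in H-929 went from 4 to 2, interferon genes over 2-fold higher in RPMI from 3 to 1, and class I genes over 2-fold higher in H-929 from 4 to 0 once rows that share an identifier were left out. Among genes with few counts, depth limits the calls, and replicate 3 of H-929 is the shallowest library.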

Other observations

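The sets in this section were chosen after their values were seen, and their counts are descriptions with no test of the set. Zinc finger genes of the ZNF family, most of which encode DNA-binding proteins known for silencing mobile elements, were mostly higher in RPMI where they cluster at the end of the long arm of chromosome 19. Of 96 tested there (from chr19:50000001 on), 85 were higher in RPMI and 6 in H-929, 66 and 3 over 2-fold, with a median of -1.76 under DMSO and -1.70 under carfilzomib. ZNF525, for example, stood at 0.84, 0.74 and 0.603 CPM in H-929 and 49.1, 50.3 and 52.3 CPM in RPMI (-6.10 ± 0.13). Other protein-coding genes of the same stretch had a median of -0.98, with 46 of 73 higher in RPMI. ZNF genes on the rest of chromosome 19 had a median of -0.61 over 127 genes, and those on other chromosomes -0.01 over 216 genes, of which 85 were higher in H-929 and 91 in RPMI. Among all 12709 protein-coding genes with a single row, 5158 were higher in H-929 and 5612 in RPMI.

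Replication-dependent histone genes, which package newly made DNA, were mostly higher in RPMI with a few wide exceptions. Of 54 tested, 36 were higher in RPMI and 13 in H-929, 22 and 7 over 2-fold, with a median of -0.89. Among H4 genes 9 of 11 were higher in RPMI and 1 in H-929, among H2B genes 12 of 15 and 2, and among H2A genes 8 of 15 and 5. Among H3 genes 7 of 11 were higher in RPMI and 3 in H-929. Only 2 H1 genes were in the set, H1-5 and H1-6, and both were over 2-fold higher in H-929. H1-6 was low, at a mean of 2.38 CPM in H-929 and 0.0885 CPM in RPMI. H3C10 differed by -3.01 and H2AC13 by -2.95. The linker histone gene H1-5 stood at 180.0, 212 and 194 CPM in H-929 against 2 counts in all in RPMI, a ratio of 7950-fold (95% counting interval 2200 to 65600), and H3C3 at 129, 157 and 132 CPM against 0.0582, 0.143 and 0.083 CPM. Histone copies are near-identical, so the split of reads among them is uncertain, and most of their transcripts lack a poly(A) tail.

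PEG10, ranked among the widest ratios on the RPMI side, has SGCE as its neighbour on chromosome 7, with which it is known to share an imprinted promoter region. SGCE, a muscle membrane gene, stood at 0.28, 0.634 and 0.669 CPM in H-929 and 32.7, 32.4 and 29.6 CPM in RPMI (-5.90 ± 0.20), so both genes of the pair were read almost only in RPMI.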
